A study of Mus musculus with 14 samples.

Results

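Promoter H3K27ac peaks that Cas9 tumour cells had and Ezh2 knockout tumour cells lacked are described here. They were chosen by the peak calls themselves. Each is an H3K27ac peak of Cas9 cells that shares at least 1 bp with an H3K4me3 peak of the same cells and with no H3K27ac peak of the knockout. Of 7951 H3K27ac peaks in Cas9 cells, 7623 lay at H3K4me3, and 576 of these met the rule, or 7.56%. The number depends on the matching. It was 1168 with the knockout list trimmed to the length of the Cas9 list and 304 with a knockout peak within 1 kb counted as a match. It was 346 with peaks joined across gaps of up to 500 bp, a choice made after seeing the data. The other 7047 promoter peaks, called again in the knockout, are called kept peaks, and the 576 are called lost peaks, which means only that no knockout peak overlapped them.

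H3K27ac is acetylation of lysine 27 on histone H3. It marks the nucleosomes beside active promoters and enhancers. H3K4me3 marks promoters, with nucleosomes on both sides of the transcription start. Lysine 27 can instead carry 3 methyl groups, H3K27me3, which Polycomb repressive complex 2 writes through its catalytic subunit Ezh2 or the related enzyme Ezh1. A lysine cannot be acetylated and methylated at the same time, so losing the methyltransferase can leave the residue free for acetylation. The lost peaks are places where an acetylation call was not repeated. Of the 576, 566 overlapped no H3K27me3 region of Cas9 cells, and neither did 6932 of the 7047 kept peaks, so this is not particular to the lost peaks.

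The cells were mouse tumorspheres of Group 3 medulloblastoma, a cerebellar tumour, that over-express Myc. The knockout is labelled p53-/-;p18-/- ;Ezh2-/-, and the Cas9 control p53-/-;p18-/-, so both lack p53 and p18, and the series' design gives a Cas9 vector as the means of the Ezh2 knockout. The protocol describes infection with retroviral vectors, sorting of RFP+/GFP+ cells, expansion, and transplantation into the brains of nude mice. Whether cultured or transplanted cells were profiled, and whether the knockout was 1 clone, the labels do not say. There was 1 chromatin immunoprecipitation library per mark and kind of cell, so no test across samples was possible. The intervals in brackets are Wilson 95% intervals, which cover counting error only. Peaks from 1 library are not replicates, and read depth is unknown.

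The lists held 10112 H3K27ac peaks in the knockout and 7951 in Cas9 cells, 14417 and 14363 H3K4me3 peaks, and 5312 and 14107 H3K27me3 regions. All positions are in build mm9. No mm9 annotation or genome was used here, so peaks are given by position, without gene names, and the cell type could not be checked at marker genes. The numbering of the knockout H3K27ac list skips 363 peaks that were not analysed here. Such a peak could lie beside 17 of the 576 lost peaks.

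The lost peaks were narrow and low in rank. Their median width was 217 bp (quartiles 186 and 269 bp), against 411 bp for kept peaks (288 and 606 bp). The authors' score ranks peaks within a list. Lost peaks had a median score of 12.9 and kept peaks 21.2, at percentiles 13.4 and 55.4 of the Cas9 list. Of the lost peaks 446, or 77.4%, ranked in the lowest 25% of the list, as did 19.7% of kept peaks. These values come from the calls that chose the peaks and are given as a description.

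**Figure D1:**
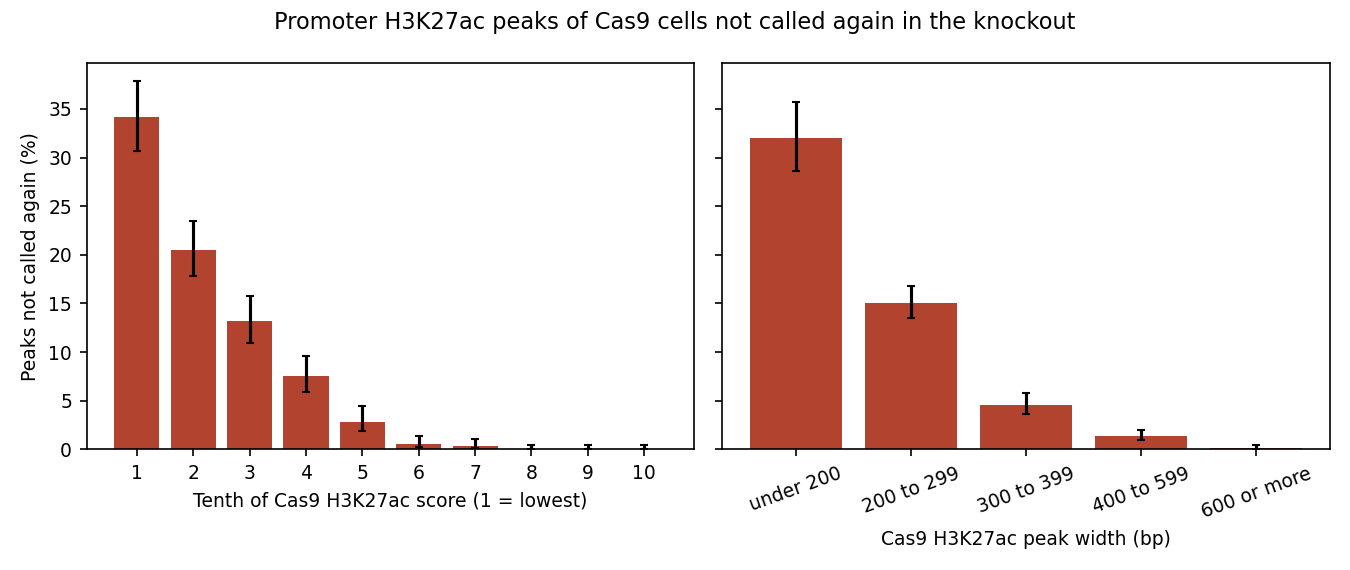
Percent of the 7623 promoter H3K27ac peaks of Cas9 cells that were not called again in the knockout, in 10 score classes from low to high (left) and by peak width in bp (right), with Wilson 95% intervals. The share was 34.2% in class 1 and 0.384% in class 7, and 32.0% under 200 bp against 0.166% at 600 bp or more.

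Up to class 7 the share lost was smaller in each higher score class. With the Cas9 list cut into 10 classes by score, the lowest held 231 lost peaks among 676 promoter peaks, or 34.2% (30.7 to 37.8). The next 4 classes held 20.5%, 13.2%, 7.56% and 2.87%. No lost peak scored above 25.38. The upper 3 classes held 0 of 2319. The limit for counting error alone, taken here as 3 divided by 2319 and not as a Wilson limit, was 0.129%. By width, 216 of 674 peaks under 200 bp were lost, and 3 of 1807 peaks of 600 bp or more. The plot of losses by score and width shows both gradients.

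The knockout list turned over more at its own low end. Of knockout H3K27ac peaks at knockout H3K4me3, 2410 of 9340, or 25.8% (24.9 to 26.7), had no Cas9 H3K27ac peak. Among those in the lowest 25% of the knockout list the share was 62.5% (60.4 to 64.5). In the lowest 25% of the Cas9 list, 24.3% (22.4 to 26.4) of promoter peaks were lost. The knockout list was the longer of the pair. With its lowest-scoring peaks removed down to 7951, the number of Cas9 promoter peaks without a knockout peak was 1168, against 576 with the full list, so these shares depend on list length. The part of read depth was not tested.

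At its edges the rule separates peaks that differ by a few bases. The lost peaks nearest to a knockout H3K27ac peak lay 1, 9 and 20 bp from it, and 9 lay within 50 bp. The kept peaks with the smallest overlaps shared 3, 15 and 15 bp, and 10 shared at most 50 bp. For H3K4me3, the smallest overlaps among lost peaks were 7 and 11 bp. The nearest unmatched peaks outside the rule lay 0 and 9 bp away from H3K4me3 without sharing a base.

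Whether acetylation remained at the same H3K4me3 peak was asked first. At 146 lost peaks, or 25.3% (22.0 to 29.1), another H3K27ac peak of the knockout lay on the same H3K4me3 peak. At 138 more, or 24.0% (20.7 to 27.6), a knockout H3K27ac peak lay within 2 kb but on no shared H3K4me3 peak. The remaining 292, or 50.7% (46.6 to 54.8), had neither. The first share was 38.9% (35.4 to 42.6) of 704 when a knockout peak had to cover 50% of the Cas9 peak, 17.5% (15.4 to 19.7) of 1168 with the trimmed knockout list, and 15.6% (12.2 to 19.8) of 346 with joined peaks. With a match allowed within 1 kb it was 0.658%, which follows from that rule. A like share of further knockout peaks was not computed for kept peaks. In Cas9 cells, another H3K27ac peak lay on the same H3K4me3 peak at 25.3% (22.0 to 29.1) of lost peaks. At kept peaks this share was 13.9% (13.1 to 14.8), or 982 of 7047.

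**Figure D2:**
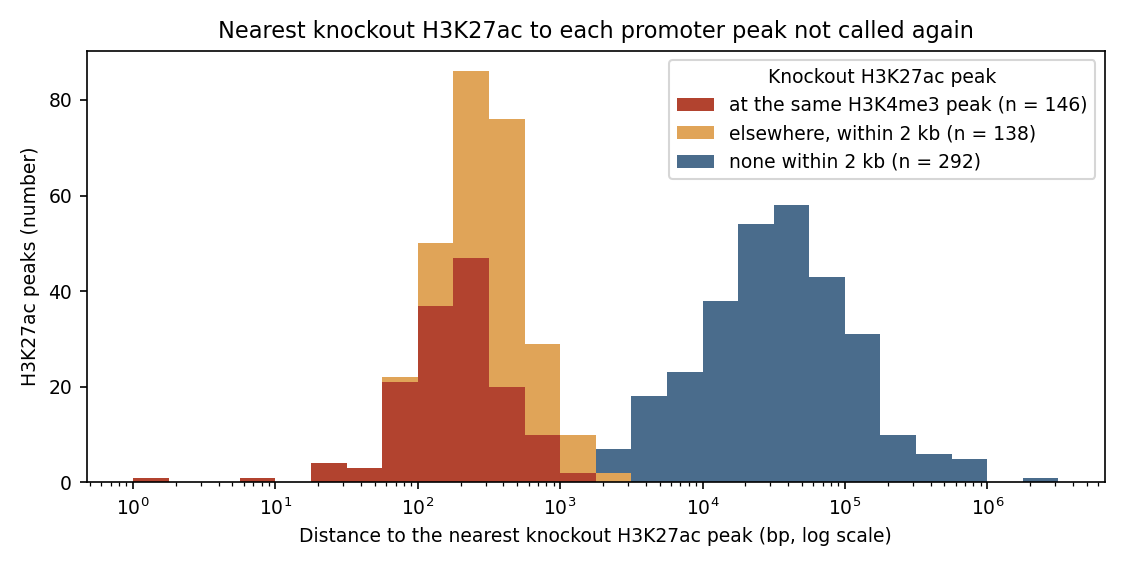
Number of lost promoter peaks (y axis) by distance to the nearest knockout H3K27ac peak in bp on a log scale (x axis), stacked by whether a knockout peak lay on the same H3K4me3 peak, elsewhere within 2 kb, or neither. Of 576 peaks, 272 had a knockout peak within 1 kb and 271 had none within 5 kb, with 33 between.

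The distances to the nearest knockout H3K27ac peak ran from 1 to 2348463 bp. Within 500 bp there were 239 lost peaks, or 41.5%, within 1 kb 272, or 47.2%, and within 5 kb 305, or 53.0%. The plot of distances shows the gap: 33 peaks lay between 1 and 5 kb, and 271 lay farther. The median distance was 187.5 bp for lost peaks with a knockout peak on the same H3K4me3 peak and 373 bp for those with one elsewhere within 2 kb. It was 35055 bp for the other 292. Most knockout peaks within 1 kb were at acetylated places of Cas9 cells: 233 of 272, or 85.7% (81.0 to 89.3), also overlapped another H3K27ac peak of Cas9 cells. In the knockout list, 6930 of 9340 H3K27ac peaks at knockout H3K4me3 overlapped a Cas9 H3K27ac peak, so most did there as well.

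The 146 lost peaks with knockout H3K27ac on a shared H3K4me3 peak lay on wide H3K4me3 peaks. Their median width was 1368.5 bp, against 622 bp for the 292 with no knockout peak near. In Cas9 cells 132 of the 146, or 90.4% (84.5 to 94.2), had another H3K27ac peak on the same H3K4me3 peak. In these 132 a neighbour was kept, and a kept peak overlaps a knockout peak by definition, so this share goes with the grouping. The lost peak was narrower than the widest kept neighbour in 119 of 132 and scored lower than the highest in 114. It lay farther from the centre of the H3K4me3 peak than the nearest kept neighbour in 94. Width and score go with the calls that chose the peaks, and the most extreme kept neighbour was used. These counts are therefore a description. Conversely, 430 lost peaks were alone on their H3K4me3 peak in Cas9 cells, and 14 of these, or 3.26% (1.95 to 5.39), had a knockout H3K27ac peak there.

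The 5 of these 146 with the highest scores had H3K4me3 peaks of 837 to 1692 bp, and 3 of them were narrower than the lower quartile of the group, 1093 bp. At chr2:38921106-38921353 a lost peak of 248 bp ended close to the edge, at 38921360, of an H3K4me3 peak of 837 bp. The knockout kept an H3K27ac peak of 351 bp at its other end, 108 bp away, and Cas9 cells had one of 338 bp there. H3K4me3 was called again in 2 pieces, of 359 and 273 bp, and the second still covered most of the lost position. At chr3:106350808-106351085, on an H3K4me3 peak of 974 bp, the knockout H3K27ac peak next to it was 425 bp wide and 226 bp away, and its Cas9 counterpart was 451 bp. This lost peak is 1 of the 17 beside a skipped knockout number.

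On an H3K4me3 peak of 1692 bp, the lost peak at chr11:74644007-74644230 lay at the edge. In the knockout the H3K4me3 peak was 1305 bp wide and began at 74644340, past the lost position. The H3K27ac peak on it was 719 bp in the knockout and 1023 bp in Cas9 cells, and a further knockout peak lay 235 bp away on the outer side. At chr10:80568389-80568592 the H3K4me3 peak of 1416 bp ranked at percentile 99.5 of its list and was called as pieces of 237 and 495 bp in the knockout. The knockout H3K27ac peak of 334 bp lay 79 bp away. At chr2:37286061-37286417 the order of sizes was turned round: the lost peak of 357 bp was the larger one, and the neighbour that stayed measured 321 bp in the knockout and 263 bp in Cas9 cells.

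The 138 lost peaks with a knockout peak elsewhere within 2 kb lay on small H3K4me3 peaks beside other ones. Their H3K4me3 peaks had a median width of 438 bp, and 128 of 138, or 92.8% (87.2 to 96.0), had another Cas9 H3K4me3 peak within 1 kb. Such a neighbour goes with how the 138 were chosen, and its share was not counted for other lost peaks or for kept peaks. The nearest knockout H3K27ac peak lay on another Cas9 H3K4me3 peak in 130, or 94.2% (89.0 to 97.0). That it was another one follows from how the 138 were defined. In the whole knockout list, 9340 of 10112 H3K27ac peaks lay at knockout H3K4me3, so most did there as well. In 115, or 83.3%, the nearest knockout peak overlapped another H3K27ac peak of Cas9 cells. Of the 9340, 6930 overlapped a Cas9 H3K27ac peak.

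The 292 lost peaks without H3K27ac nearby were as narrow as the rest, with a median of 214 bp. In Cas9 cells 11 of them, or 3.77% (2.12 to 6.62), had a second H3K27ac peak on their H3K4me3 peak, against 90.4% of those with knockout acetylation there. This contrast largely follows from the grouping. Most promoter peaks were kept, and a kept neighbour overlaps a knockout peak by definition. Of the 10 lost peaks with the highest scores, 7 belonged to this group, as did 50.7% of all 576. At the top was chr10:79727793-79728131, 339 bp wide and at rank 2491 of 7951. Its H3K4me3 peak was 649 bp in the knockout and 869 bp in Cas9 cells, and the nearest knockout H3K27ac peak lay 27057 bp away.

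Others in this group kept H3K4me3 as well. At chr8:24347801-24348095 the H3K4me3 peak was 317 bp in the knockout and 568 bp in Cas9 cells, with the nearest knockout H3K27ac peak 18995 bp off. At chr12:70269572-70269785, also beside a skipped number, the widths were 468 and 1208 bp. At chr11:68821701-68821931 they were 387 and 468 bp, and at chr14:55713600-55714109, a lost peak of 510 bp, they were 378 and 768 bp. The exception was chr3:90294700-90294958, where H3K4me3 was wider in the knockout, at 369 bp against 311 bp.

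The widest lost peak was at chr5:31828918-31829734, with 817 bp. It spanned 2 H3K4me3 peaks, which were called in the knockout at 240 and 607 bp against 259 and 704 bp in Cas9 cells. The nearest knockout H3K27ac peak was 86594 bp away. The next widest, chr1:38720093-38720790, was 698 bp wide with 30.4% of its length in H3K4me3, and a knockout H3K27ac peak lay 426 bp away.

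The fate of H3K4me3 was not used in choosing the peaks. The H3K4me3 peak was called again in the knockout at 508 of 576 lost peaks, or 88.2% (85.3 to 90.6), and at 6925 of 7047 kept peaks, or 98.3% (97.9 to 98.5). Over all H3K4me3 peaks of Cas9 cells 14.6% were not called again, so the share at lost peaks is near this background. The H3K4me3 peaks at lost H3K27ac also ranked lower, at a median percentile of 54.8 against 75.4 at kept peaks, and the part of that rank was not tested. The knockout H3K4me3 peak reached the lost position itself in 485, or 84.2% (81.0 to 87.0), and the position of a kept peak in 97.8% (97.4 to 98.1). The intervals of lost and kept peaks did not overlap. No test was made, since each value rests on 1 library per group.

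**Figure D3:**
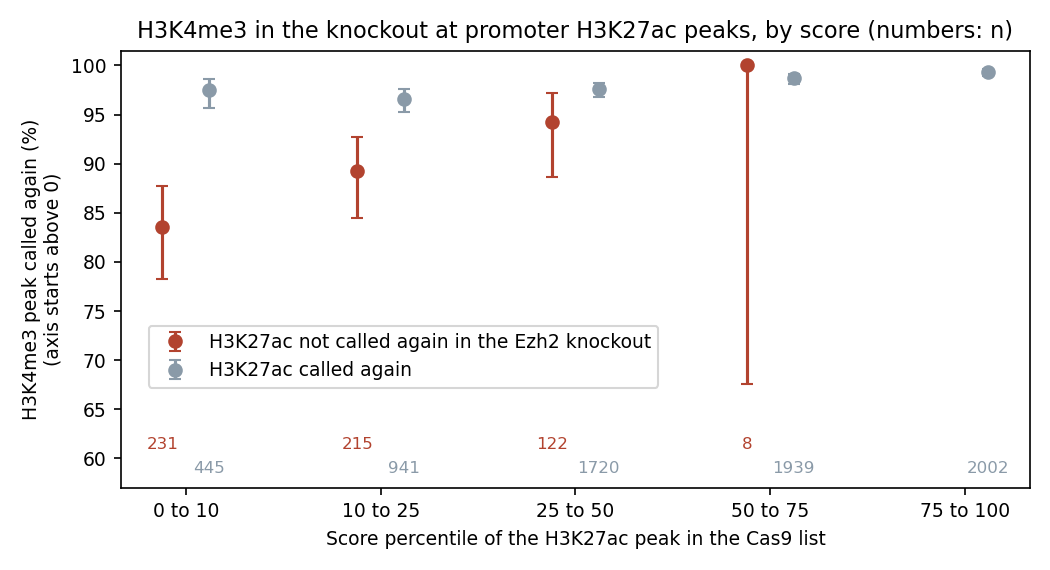
Percent of lost (red) and kept (grey) promoter H3K27ac peaks whose H3K4me3 peak was called again in the knockout (y axis, which starts above 0), by score percentile of the H3K27ac peak (x axis), with Wilson 95% intervals and the number of peaks. In the lowest class the share was 83.5% for lost and 97.5% for kept peaks.

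Because lost peaks ranked low, the shares were also set side by side within score classes. In the lowest 10% of scores, H3K4me3 was called again at 83.5% (78.2 to 87.8) of 231 lost peaks and 97.5% (95.6 to 98.6) of 445 kept ones. From 10 to 25% the shares were 89.3% (84.5 to 92.8) and 96.6% (95.2 to 97.6). From 25 to 50% they were 94.3% (88.6 to 97.2) and 97.6% (96.8 to 98.2), with overlapping intervals. The plot of H3K4me3 by score class thus shows the lower share in the classes where most lost peaks lie. Above the median of the list there were 8 lost peaks, and all 8 had H3K4me3 again.

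Counted by H3K4me3 peak, 565 held at least 1 lost H3K27ac peak, and 13 held more than 1. Of the 565, 139 had H3K27ac in the knockout and 426 had none. All 139 were called again for H3K4me3, as were 359 of the 426, or 84.3% (80.5 to 87.4), so that 67 of 565, or 11.9% (9.45 to 14.8), had neither mark in the knockout. Of the 6536 H3K4me3 peaks that held only kept H3K27ac, 97.95% (97.6 to 98.3) were called again. Of the 7249 without H3K27ac in Cas9 cells, 74.0% (73.0 to 75.02) were. The 426 H3K4me3 peaks that overlapped no knockout H3K27ac peak thus stood between these classes. A knockout H3K27ac peak could still lie beside them, as it did within 2 kb of 138 lost peaks.

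**Figure D4:**
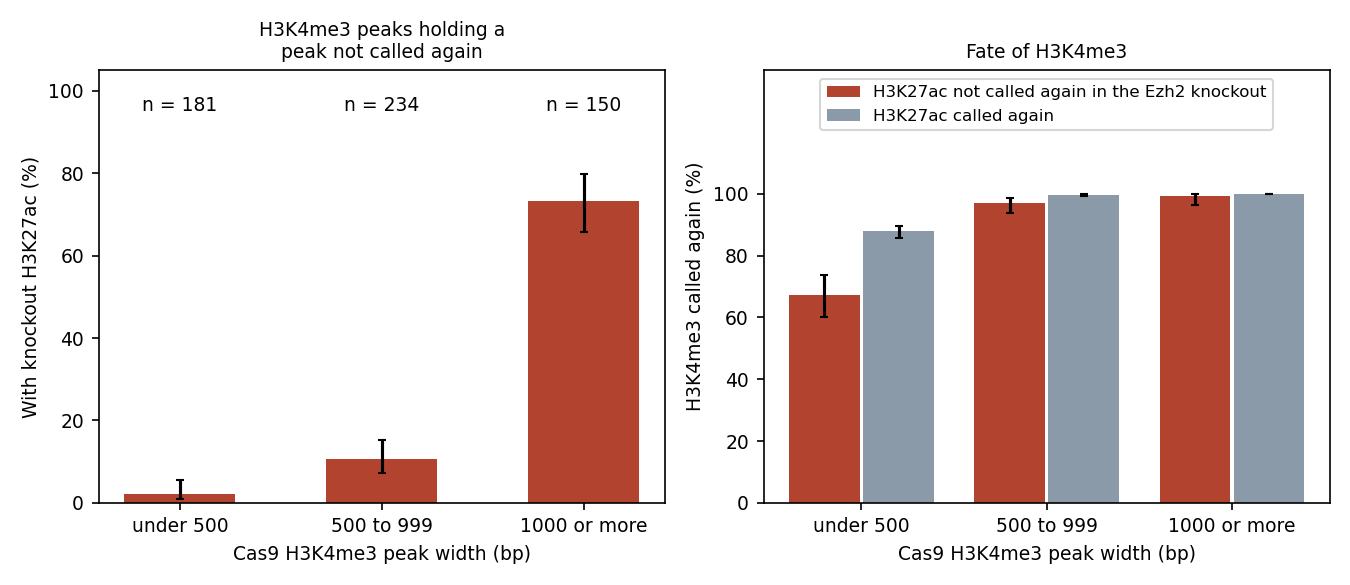
Left, percent of the 565 H3K4me3 peaks holding a lost H3K27ac peak that had any H3K27ac peak in the knockout, by their width in bp; right, percent of H3K4me3 peaks called again, for those holding a lost peak (red) and those with kept H3K27ac alone (grey). Bars carry Wilson 95% intervals. Knockout H3K27ac was present at 2.21% of peaks under 500 bp and 73.3% of those of 1000 bp or more.

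Lost peaks differed among themselves by the width of their H3K4me3 peak. Knockout H3K27ac was present at 110 of 150 H3K4me3 peaks of 1000 bp or more, or 73.3% (65.7 to 79.8). From 500 bp to under 1000 bp it was present at 25 of 234, or 10.7% (7.34 to 15.3), and under 500 bp at 4 of 181, or 2.21% (0.863 to 5.54). A wider peak has more room for a second H3K27ac peak, and its part in this order was not tested. H3K4me3 itself was called again at 67.4% (60.3 to 73.8) of the 181 narrow peaks that held a lost peak, against 87.9% (85.7 to 89.7) of 1015 narrow peaks with kept H3K27ac. From 500 bp to under 1000 bp the shares were 97.0% (94.0 to 98.5) and 99.7% (99.4 to 99.8).

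Where H3K4me3 was called again, it was mostly narrower in the knockout, and so were H3K4me3 peaks in general. The knockout H3K4me3 list had a median width of 516 bp and the Cas9 list 601 bp. Among H3K4me3 peaks with exactly 1 partner in each list, 370 held a lost H3K27ac peak, with median widths of 489.5 bp in the knockout and 637.5 bp in Cas9 cells. The median ratio of knockout to Cas9 width was 0.835 (quartiles 0.688 and 0.981), and 77.8% (73.3 to 81.8) were narrower in the knockout. For 5372 with kept H3K27ac the median ratio was 0.898 (0.773 and 1.00), and 74.0% (72.8 to 75.2) were narrower. Of 4430 without H3K27ac in Cas9 cells, 60.99% (59.5 to 62.4) were. Peak width depends on depth and threshold, and the quartile ranges of both classes overlap.

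The 68 lost peaks whose H3K4me3 peak was not called again had small H3K4me3 peaks, of 328.5 bp in the median. None of the 68 had knockout H3K27ac on that H3K4me3 peak, while 36 had it within 2 kb. The share called again was 73.9% (66.0 to 80.5) among the 138 with a knockout H3K27ac peak elsewhere within 2 kb, and 89.0% (84.9 to 92.1) among the 292 without. The highest-ranked was chr16:36874656-36874945, on an H3K4me3 peak of 407 bp, with a knockout H3K27ac peak of 610 bp at 266 bp. Likewise chr7:26539986-26540216 had a knockout H3K27ac peak of 706 bp at 196 bp, and chr7:138506541-138506816 had one of 403 bp at 349 bp.

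In 2 of the 5 highest-ranked cases no H3K27ac was called near in the knockout either. At chr3:89802715-89802939, on an H3K4me3 peak of 189 bp, the nearest knockout H3K27ac peak lay 35227 bp away. At chr11:31770441-31770625, on an H3K4me3 peak of 449 bp, it lay 198550 bp away. In all, 32 lost peaks, or 5.56% (3.96 to 7.74), had no H3K27ac within 2 kb and no H3K4me3 peak called again. A far larger number, 260 or 45.1% (41.1 to 49.2), had no H3K27ac within 2 kb and still had their H3K4me3 peak.

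Knockout H3K27me3 was rare at lost peaks, though less rare than at kept ones. A knockout H3K27me3 region overlapped 10 of 576 lost peaks, or 1.74% (0.946 to 3.17), and 32 of 7047 kept peaks, or 0.454% (0.322 to 0.640). Among all Cas9 H3K27ac peaks the share was 0.541%. H3K27me3 of Cas9 cells overlapped lost and kept peaks at about the same share, 1.74% (0.946 to 3.17) and 1.63% (1.36 to 1.96). So 566 of 576 lost peaks had no H3K27me3 call of the knockout. Of lost peaks 7, or 1.22% (0.590 to 2.49), overlapped a knockout H3K27me3 region and no Cas9 one. So did 23 kept peaks, or 0.326% (0.218 to 0.489). Whether those knockout regions met a Cas9 region outside the peak was not counted.

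**Figure D5:**
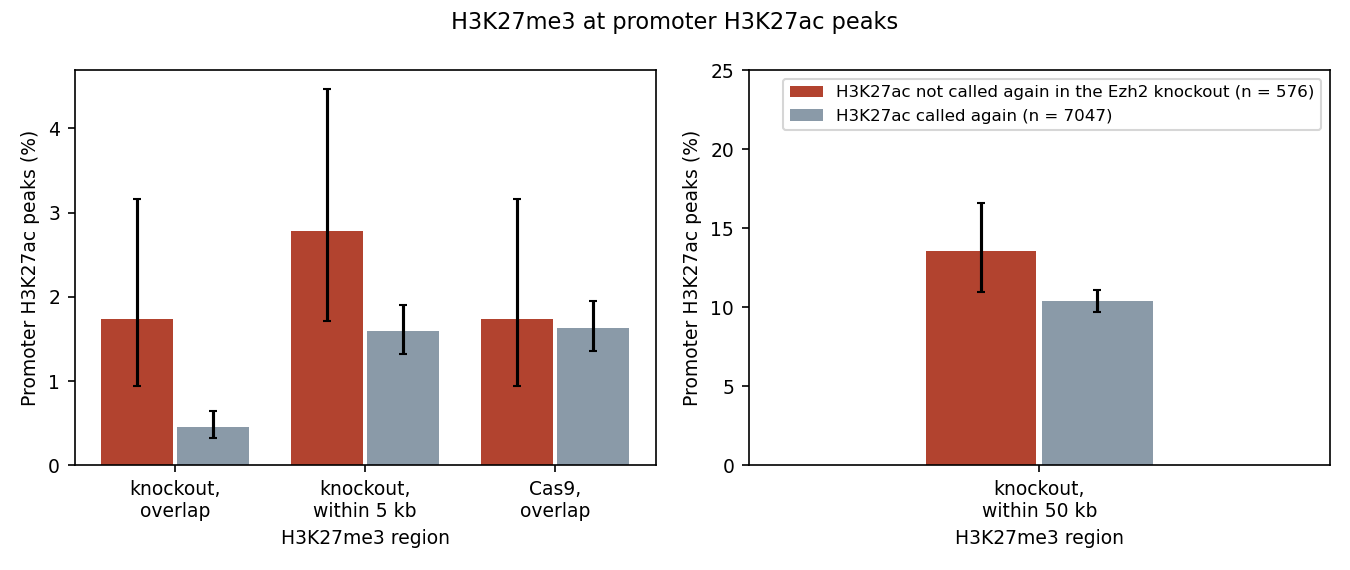
Percent of lost (red, 576) and kept (grey, 7047) promoter H3K27ac peaks at or near H3K27me3 regions, with Wilson 95% intervals; the right panel has its own scale. Overlap with knockout H3K27me3 was 1.74% for lost and 0.454% for kept peaks, while within 50 kb the shares were 13.5% and 10.4% with overlapping intervals.

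The difference in overlap rests on few peaks and was smaller at a distance. Within 5 kb of a knockout H3K27me3 region lay 16 lost peaks, or 2.78% (1.72 to 4.46), and 1.59% (1.32 to 1.91) of kept peaks. Within 50 kb the shares were 13.5% (10.99 to 16.6) and 10.4% (9.70 to 11.1). In the lowest 10% of scores, 5 of 231 lost and 5 of 445 kept peaks overlapped a knockout region, or 2.16% (0.928 to 4.97) and 1.12% (0.481 to 2.60). From 10 to 25% it was 3 of 215 and 3 of 941. In these classes and from 25 to 50% the intervals overlapped, which does not decide whether the shares differ, and no test was made. From 50 to 75% the intervals did not overlap, which rests on 1 peak. The shares were 1 of 8 lost peaks, or 12.5% (2.24 to 47.1), and 0.413% (0.209 to 0.812) of 1939 kept peaks.

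The 10 lost peaks lay in 9 knockout H3K27me3 regions of 800 to 7800 bp. The highest-ranked, chr15:61819094-61819725, was also the second of all lost peaks by score and the third in width. It was covered by a knockout H3K27me3 region of 800 bp, inside a Cas9 region of 8800 bp from 61814801 to 61823600. Its H3K4me3 peak was 739 bp in the knockout and 936 bp in Cas9 cells, and the nearest knockout H3K27ac peak was 49543 bp away. This place was called in 7 of the 11 lists, with antibodies against all 3 histone marks and Gfi1.

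At chr11:11937746-11938027 a knockout region of 2600 bp lay inside a Cas9 region of 13400 bp, and H3K4me3 measured 200 bp in the knockout and 623 bp in Cas9 cells. A knockout H3K27ac peak of 616 bp lay 475 bp away. At chr10:42893135-42893367 H3K4me3 was wider in the knockout. It measured 1970 bp in the knockout and 743 bp in Cas9 cells. A knockout H3K27me3 region of 1400 bp overlapped the lost peak, and no Cas9 H3K27me3 region did. A knockout H3K27ac peak of 568 bp lay 491 bp away under the widened H3K4me3 peak. At chr17:86090849-86091046, in a knockout region of 7000 bp, H3K4me3 was not called again. At chr12:113385447-113385725 the H3K4me3 peak of 2325 bp kept 2 H3K27ac peaks in the knockout, of 293 and 395 bp.

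The other 5 are named after their values were seen. A knockout region of 3800 bp on chromosome 7, from 6680001 to 6683800, held both chr7:6681945-6682122 and chr7:6682617-6683057. No H3K27ac lay within 2 kb of either in the knockout, and H3K4me3 was called again at the right-hand one alone. Both lie beside a skipped knockout H3K27ac number, so a peak not analysed here could lie there. Without the 17 such peaks, 8 of 559 lost peaks, or 1.43% (0.727 to 2.80), overlapped knockout H3K27me3. The longest region, 7800 bp, held chr2:174120508-174120830, likewise without H3K27ac near. At chr1:82286910-82287239 a knockout H3K27ac peak lay on the same H3K4me3 peak. At chr17:12935102-12935271, which also had H3K27me3 in Cas9 cells, one lay elsewhere within 2 kb.

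Lost peaks were spread over the chromosomes, with a higher share on X. They made up 16 of 109 promoter peaks on X, or 14.7% (9.24 to 22.5), and 560 of 7514 on autosomes, or 7.45% (6.88 to 8.07). Among autosomes the share ran between 4.62% on chromosome 9 and 9.35% on chromosome 17. In the lowest 25% of scores the X and autosome shares were 30.0% (19.1 to 43.8) and 24.2% (22.3 to 26.2), with overlapping intervals. Another lost peak lay within 10000 bp of 66 of the 576, or 11.5%. No like share was counted for kept peaks, so this value does not show whether lost peaks cluster.

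Neurospheres, floating neural cultures labelled p53-/-;p18-/-, gave a further readout with other antibodies. Gfi1 is a zinc finger repressor. Gfi1 antibody regions of neurospheres labelled Suz12F2 overlapped 97.7% (96.2 to 98.7) of lost and 99.3% (99.1 to 99.5) of kept peaks. For neurospheres labelled Cas9 these shares were 87.2% (84.2 to 89.6) and 87.4% (86.6 to 88.1). Cas9 antibody regions, taken over the lists labelled U6, Suz12F1 and Suz12F2, overlapped 11.1% (8.80 to 13.9) of lost and 20.1% (19.1 to 21.0) of kept peaks. The lower share at lost peaks goes with their lower rank and narrower width, whose part in it was not tested.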

How the data were processed

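The data were 11 lists of enriched regions, each from 1 library and deposited without headers. The submitters' processing notes name build mm9 and, without saying what each tool did, SICER 1.1, R 2.14.0, Picard, SAMtools and BWA 0.5.9-r26. Per the names of the deposited files, H3K27me3 and neurosphere regions were islands made with a 200 bp window, a 600 bp gap and a false discovery rate of 0.00001. The sources used here do not say how H3K27ac and H3K4me3 peaks were called or against which control, and the labelled input libraries were not analysed here. The authors deposited a score for each region whose meaning is not stated, and it was used only to rank regions within a list. No library totals were used, so depth is unknown.

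Island starts and ends were read as 0-based first and last bases, and 1 bp was added to each end. Overlap (at least 1 bp), distances and Wilson 95% intervals were computed with Python 3.11.15, pandas 2.3.3, numpy 2.4.6 and scipy 1.17.1, and figures with matplotlib 3.10.9. Overlap counts were checked against bedtools 2.31.1 in 60 comparisons, of which 0 differed, and on simulated data. The peaks, the rule for those named (the highest scores overall and in each class, and the widest) and the alternatives were chosen with earlier results of these data known. The planned check at marker genes needed an mm9 annotation and was not made.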

Additional observations from a re-analysis of the deposited data

How the results depend on the processing

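For the lost peaks, 6 results were recomputed under 9 alternatives. These were their number, median width, median score percentile, and the shares with knockout H3K27ac, H3K4me3 and H3K27me3. Values of kept peaks, and splits by score, width or chromosome, were not recomputed. Of the alternatives 7 were planned. The other 2, peaks joined across gaps of up to 500 bp and the removal of the 17 peaks at skipped knockout numbers, were added after seeing the data. With a knockout peak within 1 kb counted as called again, 304 lost peaks were left, and 0.658% had knockout H3K27ac on the same H3K4me3 peak, which follows from the rule. With the knockout list trimmed by score to 7951 peaks there were 1168, with a median width of 236 bp at percentile 16.0; 17.5% had knockout H3K27ac on the same H3K4me3 peak and 91.8% had H3K4me3 again. When 50% of a Cas9 peak had to be covered, 38.9% had such H3K27ac and the median width was 226 bp. The upper 50% of scores left 8 lost peaks with a median width of 268.5 bp at percentile 55.4, of which 100% had H3K4me3 again and 12.5%, 1 peak, knockout H3K27me3. Joined peaks gave 346, of which 15.6% had knockout H3K27ac on the same H3K4me3 region and 91.9% H3K4me3 again. Autosomes alone, 50% cover by H3K4me3, removal of Cas9 antibody regions and removal of the 17 peaks moved none of the 6 results beyond its 95% interval, or the count by over 1.5 times. The 8 follow from keeping only the upper 50% of scores, not from another way of matching. Under the other alternatives the number of lost peaks ran between 304 and 1168 and has no firm value. The H3K4me3 share there stayed between 87.7% and 91.9%.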
